A study of Mus musculus with 37 samples.

Results

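Whole spleens of wild-type C57BL/6N mice were compared after 10 social defeats and after 4, with 1 defeat a day, to ask which transcripts separate the longer from the shorter exposure. Social defeat puts a mouse in the presence of an aggressive mouse that attacks and subordinates it, and is used in mice as a model of chronic psychosocial stress. The comparison holds 6 libraries after 10 defeats (D4, D5, D6, D7, D9 and D10) and 2 after 4 defeats (D13 and D14), which are 8 of the 37 libraries of the series. All were chosen by their tissue and treatment labels, and spleens taken after 10 defeats and 1 week of rest were not among them. The series also holds spleens of undefeated controls and of mice defeated once, and femoral bone marrow of the same 5 treatments. The control, once-defeated and rested spleens were not compared here. They entered the estimate of the spread and the steps that used all 18 spleen libraries. Among those were the filter on low values, the principal components and the mean from which length trends were taken. The design text calls the libraries of a group biological replicates. The time between the last defeat and tissue collection, and which marrow and spleen came from the same mouse, are not given in the sources used here.

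The mouse spleen filters blood, stores lymphocytes in its white pulp and, unlike the human organ in adult life, keeps making red cells and granulocytes in its red pulp. Erythroblasts pass through a fixed order in which GATA1 switches on the genes of haem synthesis, globin and the red cell membrane. Early granulocytes make the contents of their primary granules, such as elastase and myeloperoxidase, and later stop making them as they mature.

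PolyA RNA was sequenced, and each value is an abundance per gene scaled between libraries by the authors. The depth estimated from the steps of low values was 9340000 to 27380000 reads per library after 10 defeats, against 11540000 for D13 and 8440000 for D14 after 4. The libraries after 10 defeats lay apart from each other. D6, D7, D9 and D10 had 45.4% to 52.1% of their summed values in haemoglobin genes, column totals of 1539153 to 2375554 and a negative trend of expression with transcript length, of -0.136 to -0.119 log2 units per doubling of length. D4 and D5 had 11.5% and 24.5% haemoglobin, totals of 682161 and 834599, and slopes of 0.0408 and 0.0148, closer to the 4-defeat libraries, which had 1.74% (D13) and 14.1% (D14) haemoglobin, totals of 681378 and 657918, and slopes of 0.0569 and 0.0556. The first principal component of the 18 spleen libraries, with 63.7% of the variance, put D6, D7, D9 and D10 at 76.0 to 116, D4 and D5 at -19.1 and 10.4, and D13 and D14 at -41.0 and -30.1. Within the 4-defeat group, D13 stood far above D14 for several macrophage, stroma and plasma protein genes. Of the 136 named genes that passed the test, 44 had a log2 fold change smaller by over 1.5 times against D14 alone. Against D13 alone 17 had one larger by over 1.5 times, and those values stand beside the genes described. The 136 include a few genes named after their values were seen. With D4 and D5 as the only 10-defeat libraries, 103 of the 136 were smaller by over 1.5 times and none changed sign. That value is given for the lists and for some of the genes. What part the haemoglobin share, the length trend or D13 has in a result was not tested beyond those values.

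No marker of a spleen cell type was at 0 in all 8 libraries, for any of the marker sets used to check the tissue label. The 7 pancreas markers summed to 39.3 to 282 after 10 defeats, against 27.97 and 35.81 after 4, but 6 of the 7 were under 1 in all 8 libraries, Pnlip was listed at 0 in all of them, and the sum rested on Cela1. The 4 adipocyte markers summed to 3.68 to 33.7 after 10 defeats, against 14.1 and 15.5 after 4. In whole tissue, fewer cells of a type and less RNA per cell cannot be told apart, and all values below share that limit.

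Over all genes, more transcripts were lower than higher after 10 defeats. Of 13945 genes tested, 574 rose (4.12%) and 1566 fell (11.2%) after 10 defeats, by limma with Benjamini-Hochberg adjustment at 0.05, so that 15.3% were called in all. The median log2 fold change over all tested genes was -0.28. The libraries of the groups did not overlap for 32.2% of tested genes, which were 1256 genes higher after 10 defeats (9.01%) and 3240 lower (23.2%). The balance of directions depended on how libraries are put on one scale. Calls higher after 10 defeats made up 26.8% of calls under the authors' scaling, 56.4% after quantile normalization (736 higher, 569 lower), 60.7% with median-ratio size factors (714 higher, 462 lower) and 3.82% with column totals made equal (193 higher, 4853 lower).

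These calls are close to the threshold. The smallest adjusted p was 0.0192, while 6153 genes had an unadjusted p under 0.05. Without D7, D10 or D13 no gene was called, with 5287, 5307 and 2105 genes at an unadjusted p under 0.05. Without D6 or D9, 3 genes and 1 gene were called, and without D14 the calls were 842. Leaving out D4 or D5 instead gave 6363 or 4876 calls, and leaving out all of D6, D7, D9 and D10 gave 1. Every call named below was lost without each of D7, D9, D10 and D13, and all except that of Stfa2 were lost without D6, while none changed sign in these fits. The verbs rose and fell therefore refer to the fit of all 18 spleen libraries. The 26 gene lists described below have 554 members, of which 550 were found in the table and 20 of these were below the filter on low values, so that 530 were tested, and counts refer to the tested ones.

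**Figure D1:**
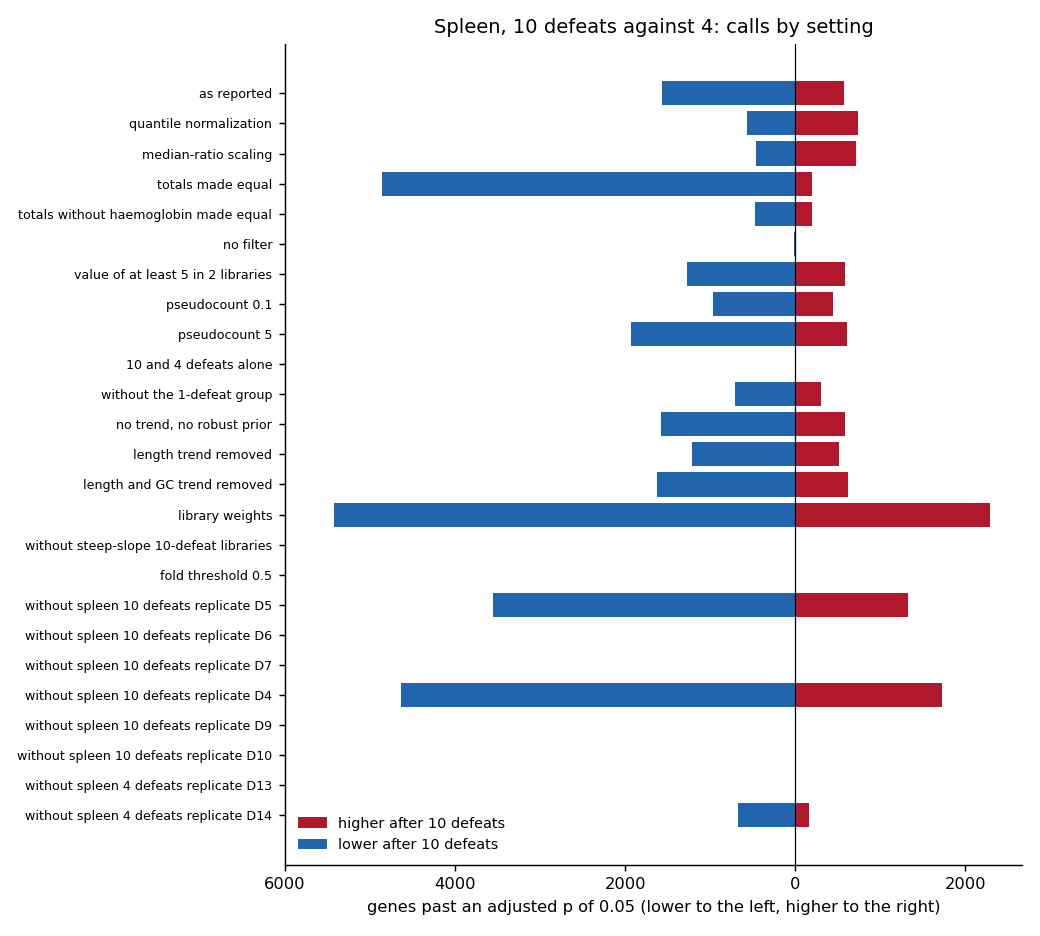
Number of genes past an adjusted p of 0.05 by limma in spleen, 10 defeats against 4, under each setting. Bars to the right count genes higher after 10 defeats and bars to the left genes lower. As reported there were 574 higher and 1566 lower, and without D7, D10 or D13 there were none.

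Red cell genes rose as a group. Of 33 tested genes of the erythroid list, 24 rose after 10 defeats and none fell, against 4.12% of all genes called higher. Their median log2 fold change was 2.11, against -0.28 over all genes. Relative to all genes the list's median was 2.40 log2 units, 1.78 against D14 alone, and 1.41 with D4 and D5 as the only 10-defeat libraries.

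The promoters of this list were searched for the site of GATA factors, among them GATA1, a regulator of the red cell program. Whether GATA1 had a part in any rise was not tested. Promoter sequences came from RefSeq on build GRCm38.p6, as the 250 bases before the annotated start. The motif searched was AGATAA or TGATAA on either strand, so that it also reads TTATCT or TTATCA, which is the core of the site that GATA factors bind. No other motif was searched. The GATA motif was found in 14 of 26 promoters of the list, which belong to 21 matched genes (53.8%), and in 16.6% of 32851 promoters of all genes. Among the 16 matched genes of the list that rose, it was in 10 of 21 promoters. Capitals mark the motif, read on the strand of the gene, in 3 genes of the list chosen after their values were seen, which encode a red cell ubiquitin ligase (Trim10), the erythropoietin receptor (Epor) and the first enzyme of red cell haem synthesis (Alas2).
Trim10, chr17:36869324-36869573, plus strand: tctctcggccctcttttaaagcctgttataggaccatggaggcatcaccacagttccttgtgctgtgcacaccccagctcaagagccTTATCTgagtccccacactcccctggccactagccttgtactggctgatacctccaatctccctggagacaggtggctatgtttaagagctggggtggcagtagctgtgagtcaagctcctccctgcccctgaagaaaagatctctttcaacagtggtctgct
Epor, chr9:21963577-21963826, minus strand: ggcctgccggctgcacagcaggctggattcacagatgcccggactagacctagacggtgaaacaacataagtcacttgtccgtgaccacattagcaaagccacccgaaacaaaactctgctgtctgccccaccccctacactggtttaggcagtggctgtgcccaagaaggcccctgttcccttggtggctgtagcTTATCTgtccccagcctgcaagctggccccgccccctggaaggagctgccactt
Alas2, chrX:150547167-150547416, plus strand: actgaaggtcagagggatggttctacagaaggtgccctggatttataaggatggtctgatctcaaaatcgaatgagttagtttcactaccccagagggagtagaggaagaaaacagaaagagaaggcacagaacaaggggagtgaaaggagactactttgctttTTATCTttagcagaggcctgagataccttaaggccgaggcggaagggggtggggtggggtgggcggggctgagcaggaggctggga

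Gata1, the transcription factor of the red cell lineage, had values of 42.1 to 99.5 after 10 defeats with a median of 73.4, against 18.9 in D13 and 28.05 in D14. The groups did not overlap. Its log2 fold change was 1.56 (SE 0.38, adjusted p = 0.0319, limma), and 1.35 with D4 and D5 as the only 10-defeat libraries. Of the promoters shown, Trim10 had 50.4 to 423 after 10 defeats (median 355), against 8.82 and 43.8 after 4, with a log2 fold change of 3.48 (SE 0.81, adjusted p = 0.0319, limma). Epor averaged 66.9 ± 19.5 after 10 defeats and 20.7 ± 6.90 after 4 (SD, n = 6 and 2), and Alas2 averaged 892 ± 467 and 172 ± 163. Both passed the threshold, although the Alas2 values overlapped, with D4 inside the 4-defeat range, and its log2 fold change of 2.54 was 1.39 against D14 alone.

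A membrane glycoprotein gene of red cells rose as well. Gypc, glycophorin C, had 48.6 to 188 (median 123) after 10 defeats, against 26.1 and 40.4 after 4, and a log2 fold change of 1.76.

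Genes of haem synthesis rose with them. Uros and Urod, consecutive enzymes of the pathway, had medians of 246 (39.5 to 541) and 467 (107 to 645) after 10 defeats, against 16.6 and 30.6 for Uros and 45.6 and 82.6 for Urod after 4. Their log2 fold changes were 3.12 and 2.52. Fech, which inserts iron into the ring, had 113 to 549 (median 426) after 10 defeats, against 46.0 and 95.2 after 4, with a log2 fold change of 2.37. The mitochondrial glycine carrier Slc25a38, which supplies the first step, had 56.7 to 626 (median 329), against 17.9 and 36.6, and a log2 fold change of 3.23. Blvrb, an enzyme of haem breakdown abundant in red cells, had 296 to 1843, against 140 and 210. In all 5 genes D4 was the lowest of the 10-defeat libraries and still lay above both 4-defeat libraries. The rule that named Uros and Slc25a38 required such a gap, and 9.01% of all tested genes were higher without overlap.

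Globin transcripts passed the test but their libraries overlapped. Hbb-bs, an adult beta globin gene, had 31555 in D4, 79319 in D5 and 497548 to 878797 in the others, against 4794 in D13 and 37680 in D14. Its log2 fold change was 4.27 (SE 1.14, adjusted p = 0.0348, limma), and 2.78 against D14 alone. The adult globin genes Hba-a1, Hba-a2, Hbb-bs and Hbb-bt rose by 2.9995 to 4.2691 log2 units, and in each D4 lay below D14. Against D14 alone the changes were 1.65 for Hba-a1, 1.49 for Hba-a2 (4.51 against D13 alone) and 2.49 for Hbb-bt. Near-identical globin copies share reads, so the division between Hba-a1 and Hba-a2, and between Hbb-bs and Hbb-bt, is uncertain. The share of summed values in haemoglobin genes averaged 38.8% ± 16.8 after 10 defeats and 7.90% ± 8.71 after 4 (SD, n = 6 and 2; exact permutation test, two-sided p = 0.0714, adjusted p = 0.167 over 7 library measures), where 28 arrangements allow no p below 0.0357.

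Not every red cell gene moved. Car1, a carbonic anhydrase of erythroid cells, had 63.9 to 443 after 10 defeats (median 204), against 219 and 229 after 4, and its log2 fold change was -0.28 (SE 0.57). Sptb, which encodes a spectrin of the membrane skeleton, had a log2 fold change of 0.31 with an adjusted p of 0.709 by limma, and Klf1, a further red cell transcription factor, had 1.15 with 0.132. Several large rises outside the list had the same order of libraries. Hbq1b, an alpha-like globin gene, rose by 3.87 log2 units, Fn3k, a kinase that repairs glycated protein, by 3.49, Pdzk1ip1, a small membrane protein gene beside Tal1, by 3.54, and Rec114, a gene of meiotic recombination, by 3.76. For these 4, D4 was again the lowest and D5 the next of the 10-defeat libraries. None overlapped the 4-defeat libraries, which the rule that named them required. Acmsd, an enzyme of tryptophan breakdown, had 4.14 to 59.5 after 10 defeats, against 0.848 and 2.55 after 4. Nacad had 0.957 to 35.8, against 0.245 and 0.933, so that its lowest 10-defeat library almost touched the 4-defeat range.

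**Figure D2:**
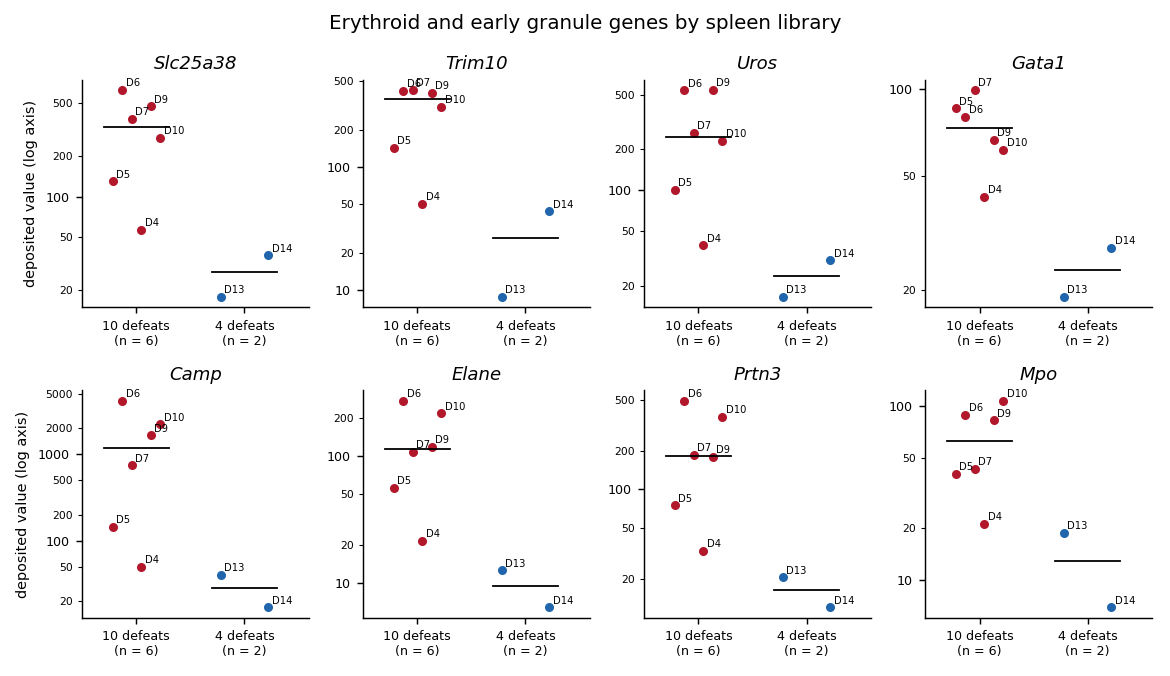
Deposited values (log axis) of 8 genes in each spleen library, 10 defeats (n = 6) left of 4 defeats (n = 2), with the group median as a bar. D4 and D5 lie between the 4-defeat libraries and D6, D7, D9 and D10 for Slc25a38, Trim10, Uros, Camp, Elane and Prtn3, whereas D5 is the second highest for Gata1.

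Early granule genes rose in part. Of 11 tested members of the early granule list, 6 rose after 10 defeats (54.5%, against 4.12% of all genes) and none fell. Their median log2 fold change was 2.20, against -0.28 over all genes. The serine proteases of the primary granule moved together. Elane, neutrophil elastase, had 21.5 in D4, 56.6 in D5 and 108 to 273 in the others, against 12.6 and 6.43 after 4 defeats. Its log2 fold change was 3.32 (SE 0.68, adjusted p = 0.0319, limma), 3.75 against D14 alone and 1.84 with D4 and D5 only. Prtn3, proteinase 3, had 33.2 to 489 (median 182), against 20.7 and 12.1, with a log2 fold change of 3.23, and Ctsg, cathepsin G, had 13.9 to 238, against 12.1 and 5.40, with a log2 fold change of 2.82. Mpo, myeloperoxidase, had 21.1 to 107 (median 63.2), against 18.7 and 6.98, and rose by 2.18 log2 units. Fcnb, a lectin of early myeloid cells, had 4.58 to 57.9, against 1.63 and 1.03, and rose by 3.17. Cebpe, the transcription factor of granule maturation, rose by 2.20, with D4 (2.10) below D13 (2.32). For Elane, Prtn3, Mpo and Fcnb the groups did not overlap, which the rule that named them required of all except Mpo. Of all tested genes 9.01% were higher without overlap. Ms4a3 had a log2 fold change of 3.44 and missed the threshold (adjusted p = 0.051, limma). Nkg7, Gfi1, Serpinb1a and Cst7 had 0.41, 0.18, 0.06 and 0.02 and did not pass. Relative to all genes the list's median was 3.09 against D14 alone and 0.99 with D4 and D5 only.

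Markers of mature neutrophils did not follow as a list. Of 23 members 1 rose (4.35%, near the 4.12% of all genes) and 4 fell (17.4%, against 11.2%), with a median log2 fold change of -0.52. The rise was Camp, the cathelicidin of the later granule, which had the largest rise under the rule for named genes, with 49.7 in D4, 144 in D5 and 739 to 4129 in the others, against 39.9 and 16.9. Its log2 fold change was 4.60 with a wide error (SE 1.36, adjusted p = 0.0418, limma) and was 1.66 with D4 and D5 only. The calprotectin subunits S100a8 and S100a9 ranged from 365 to 32417 and from 608 to 50823 after 10 defeats, against 2309 and 785 for S100a8 and 2605 and 907 for S100a9 after 4, and did not pass the test (adjusted p = 0.358 and 0.236, limma). D4 and D5 lay below D13 for both. Cxcr2, the chemokine receptor of mature neutrophils, had 3.65 to 7.76 after 10 defeats, against 18.9 and 11.1, and fell by 1.22 log2 units. Itgam, an integrin of neutrophils and monocytes, and Stfa2, a cysteine protease inhibitor, also fell but overlapped, with Itgam at 2.46 to 9.93 against 37.05 and 6.49. Their log2 fold changes of -1.53 and -3.19 were -0.36 and -1.58 against D14 alone, and -2.70 and -4.81 against D13 alone. Relative to all genes the list's median was -0.23, but 0.79 against D14 alone, -0.70 against D13 alone, 0.14 without D4, -0.0814 without D5, -0.45 without D6 and -1.01 with D4 and D5 only.

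Some eosinophil and basophil granule genes rose, most of them at low values. Of 9 eosinophil genes 4 rose (44.4%, against 4.12% of all genes) and none fell. Their median log2 fold change was 0.88, which relative to all genes was 1.16, and 1.85 against D13 alone. Prg2, the eosinophil major basic protein, had 24.6 to 126 (median 81.3) after 10 defeats, against 13.28 and 14.04 after 4, and rose by 2.14 log2 units. Ear1, an eosinophil ribonuclease, rose by 2.16, with 1.78 to 10.6 against 0.488 and 0.207. Ear6, a close copy, rose by 1.88, and how reads were divided between such copies is uncertain. The basophil proteases Prss34 and Mcpt8 had 2.31 to 12.5 and 1.96 to 20.2, against 0.948 and 0.436 for Prss34 and 1.55 and 1.24 for Mcpt8. They rose by 2.26 and 2.37 log2 units. Hdc, which makes histamine, and Gata2, a factor of mast cells and progenitors, went the other way, with 2.76 to 5.94 and 0.508 to 3.15 after 10 defeats against 11.6 and 6.52 for Hdc and 5.99 and 3.76 for Gata2. They fell by 1.03 and 1.19 log2 units, and the change of Hdc was -0.65 against D14 alone. In the basophil and mast cell list as a whole, 3 of 11 genes rose (27.3%, against 4.12% of all genes) and 2 fell (18.2%, against 11.2%).

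Cell cycle genes rose in part. Of 14 replication-dependent histone genes, 8 rose (57.1%, against 4.12% of all genes) and none fell, with a median log2 fold change of 1.56. Of 22 S phase genes 6 rose (27.3%) and none fell (median 0.53), and of 22 G2/M genes 7 rose (31.8%) and none fell (median 0.60). Tyms, which makes thymidylate, had 66.8 to 468 after 10 defeats, against 41.5 and 49.6 after 4, and rose by 2.06 log2 units. Pcna, the replication clamp, had 198 to 693, against 173 and 167, and rose by 1.27. Birc5, survivin, had 89.8 to 451 (median 331), against 75.3 and 65.4, and rose by 1.93, and the mitotic kinase Aurka, with 24.3 to 72.7 against 20.7 and 17.6, rose by 1.35. None of these 4 overlapped, and 9.01% of all tested genes were higher after 10 defeats without overlap. Mki67, the proliferation antigen, had 16.6 to 45.4 (median 22.2), against 37.8 and 21.4, and a log2 fold change of -0.24 (adjusted p = 0.678, limma). The helicase subunits Mcm4 and Mcm6 had log2 fold changes of -0.70 and -0.66, and Plk1 had -0.79, none past the threshold. Histone messages mostly lack a poly(A) tail, so polyA libraries record only part of them, and H1f1 was under 1 in both 4-defeat libraries (0.155 and 0.393), against 1.19 to 39.5 after 10 defeats.

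**Figure D3:**
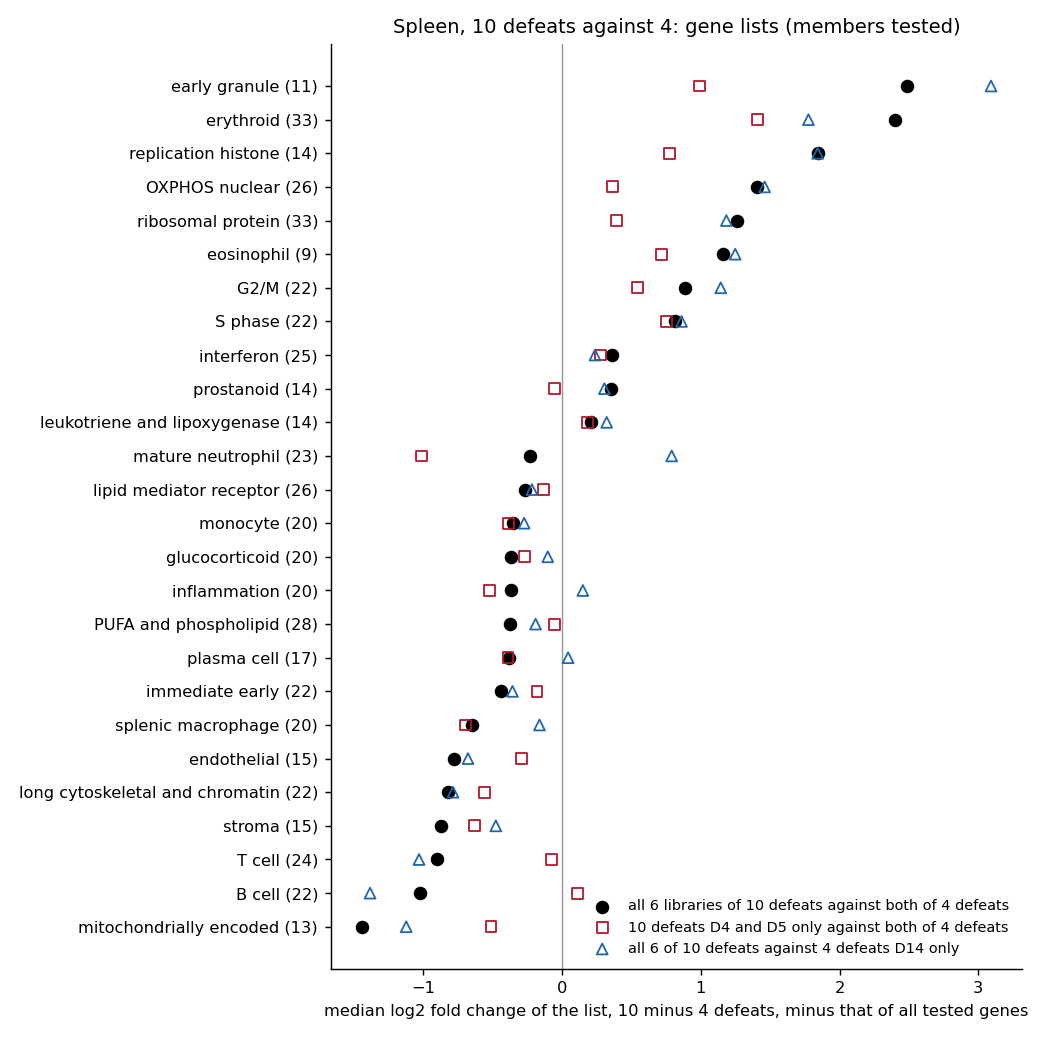
Median log2 fold change of each described list, 10 defeats minus 4, minus the median of all tested genes (-0.28), with the number of members tested in brackets. Filled points use all libraries, squares only D4 and D5 after 10 defeats, triangles only D14 after 4. Erythroid stays right of 0 under all 3 (2.40, 1.41 and 1.78), and the B cell list lies at -1.03, 0.11 and -1.38.

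Few lymphocyte genes passed the test. Of 22 B cell genes 2 fell and none rose, with a median log2 fold change of -1.31, and of 24 T cell genes 2 fell and none rose, with a median of -1.19, and these shares, 9.09% and 8.33%, were under the 11.2% of all genes called lower. Cd79a, a chain of the B cell receptor, had 560 in D4 and 343 in D5 but 44.1 to 232 in the other 10-defeat libraries, against 189 and 553 after 4 defeats, and did not pass (log2 fold change -0.97, adjusted p = 0.293, limma). Cd3e, of the T cell receptor complex, had 2.32 to 29.5, against 32.5 and 32.3, and missed the threshold at an adjusted p of 0.0642 by limma although the groups did not overlap. Its log2 fold change was -1.75, and -0.38 with D4 and D5 only.

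Lymphocyte members that fell were few. Cd28, a T cell co-stimulator, had 0.911 to 5.52 after 10 defeats, against 9.25 and 6.52 after 4, and fell by 1.28 log2 units. Bcl11b, a T cell transcription factor, had 0.153 to 2.45, against 2.58 and 3.98, and fell by 1.36. The B cell genes Pou2af1, a co-activator, and Ighm, the mu heavy chain, fell by 2.21 and 1.78 log2 units, although D4 lay above D14 in both (100.1 against 93.2 for Pou2af1). With D4 and D5 as the only 10-defeat libraries the median relative to all genes was 0.11 for B cell genes and -0.08 for T cell genes, and against D13 alone it was -0.44 for B cell genes.

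Some genes of plasma cells and secretion fell. Of 17 plasma cell genes 6 fell (35.3%, against 11.2% of all genes) and none rose, with a median log2 fold change of -0.66. Irf4, the factor of plasma cells and activated lymphocytes, had 2.38 to 15.7 after 10 defeats, against 31.5 and 17.8 after 4, and fell by 1.99 log2 units. Hsp90b1, an endoplasmic reticulum chaperone, had 59.8 to 180, against 538 and 214 (-1.83, and -1.17 against D14 alone). Edem1, of the same compartment, had 19.5 to 41.2, against 121 and 42.8, so that D14 lay just above the highest 10-defeat library, and its log2 fold change of -1.35 was -0.61 against D14 alone and -2.08 against D13 alone. Immunoglobulin genes held 4.61% ± 4.81 of summed values after 10 defeats and 13.4% ± 7.62 after 4 (SD, n = 6 and 2; exact permutation test, two-sided p = 0.107, adjusted p = 0.187 over 7 library measures). The list's median relative to all genes was -0.38, 0.04 against D14 alone and -0.98 against D13 alone.

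Of 20 splenic macrophage genes 6 fell (30.0%, against 11.2% of all genes), 14 did not pass and none rose, with a median log2 fold change of -0.93. Marco, a scavenger receptor of the marginal zone, had 6.75 in D6, 75.6 in D4 and values between them in the other 10-defeat libraries, against 1425 in D13 and 78.3 in D14. D14 thus lay next to D4. The log2 fold change was -3.82 (SE 0.97, adjusted p = 0.0329, limma), -1.73 against D14 alone and -5.90 against D13 alone. Siglec1, the sialoadhesin of metallophilic macrophages, had 0.179 to 3.65, against 16.1 and 3.88, and fell by 2.09 log2 units, but by 1.19 against D14 alone. Cd163, the haemoglobin scavenger receptor of red pulp macrophages, had 3.10 to 6.10, against 31.8 and 8.14, and fell by 1.71, but by 0.79 against D14 alone and by 2.64 against D13 alone. Mertk, a receptor for dying cells, had 3.86 to 7.48, against 23.1 and 9.44, and its log2 fold change of -1.25 was -0.65 against D14 alone. The median of the list relative to all genes was -0.65, -0.16 against D14 alone and -1.22 against D13 alone.

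Monocyte genes that passed were mostly lower. Of 20, 7 fell (35%, against 11.2% of all genes) and 1 rose (5%, near the 4.12% of all genes). The median log2 fold change was -0.64, against -0.28 over all genes. Relative to all genes it was -0.35, -0.27 against D14 alone and -0.39 with D4 and D5 only. The transcription factor Cebpb had 1.75 to 5.35 after 10 defeats, against 31.6 and 6.22 after 4, and fell by 1.86 log2 units. Its log2 fold change was -0.77 against D14 alone and -2.95 against D13 alone. Csf1r, the receptor of macrophage colony-stimulating factor, had 8.03 to 94.7, against 270 and 91.8, and fell by 2.56 log2 units with D4 above D14. Ccr2, the receptor with which monocytes leave the marrow, had 5.84 to 25.3, against 1.62 and 6.27, and rose by 1.65 log2 units, or 0.92 against D14 alone, with D4 below D14.

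Stroma and vessel genes fell in part. Of 15 stroma genes 9 fell (60.0%) and none rose (median log2 fold change -1.16), and of 15 endothelial genes 6 fell (40.0%) and none rose (median -1.06). Among all genes 11.2% fell. Col4a1 and Col4a2, the chains of basement membrane collagen, had 2.39 to 10.98 and 0.643 to 4.07 after 10 defeats, against 54.5 and 16.6 for Col4a1 and 24.3 and 6.44 for Col4a2 after 4. They fell by 2.56 and 2.47 log2 units, and by 1.73 and 1.59 against D14 alone. Sparcl1, a matrix protein of vessels and reticular cells, had 3.09 to 28.3, against 66.3 and 40.1, and fell by 2.60 (SE 0.59, adjusted p = 0.0319, limma). Mmp14, a membrane protease that cuts matrix, had 1.31 to 13.04, against 56.6 and 14.7, with log2 fold changes of -2.48 and, against D14 alone, -1.54. Pdgfra and Pdgfrb, growth factor receptors of fibroblasts and pericytes, each fell by 1.69 log2 units, and Pdgfra by 1.09 against D14 alone.

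Chemokines of the white pulp frame overlapped between groups. Cxcl13, which draws B cells into follicles, had 38.9 to 143 after 10 defeats, against 455 and 118 after 4, and Cxcl12 had 63.1 to 221, against 372 and 212. Both passed the test (-1.86 and -1.49), yet D4 lay above D14 in both, and the change of Cxcl13 was -0.90 against D14 alone and -2.83 against D13 alone. Kdr, the main receptor for vascular growth factor, had 0.555 to 2.78, against 5.54 and 3.91, and fell by 1.41. Cdh5, the cadherin of vessel junctions, had 0.538 to 6.57, against 12.2 and 6.92, and fell by 1.83. Stab2, a receptor of the sinus lining, had 2.17 to 14.97, against 28.2 and 19.5, and fell by 1.54. Relative to all genes, the median of stroma genes was -0.87, -0.48 against D14 alone, -1.34 against D13 alone and -0.63 with D4 and D5 only. That of endothelial genes was -0.78, and -0.29 with D4 and D5 only.

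**Figure D4:**
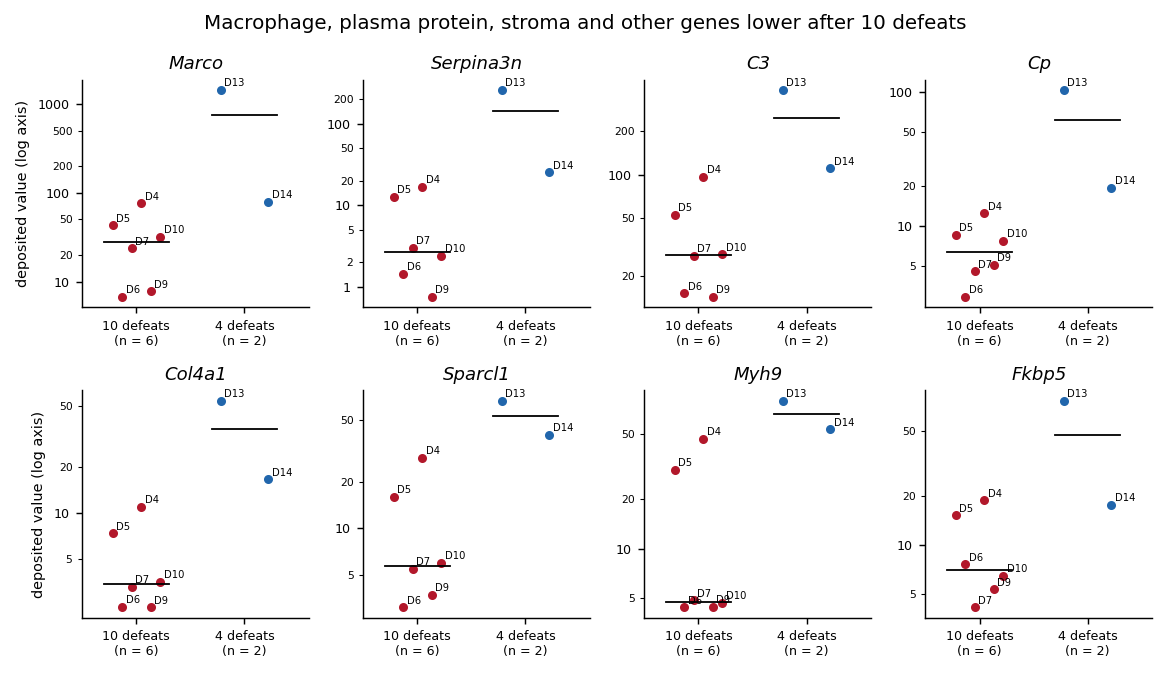
Deposited values (log axis) of 8 genes in each spleen library, 10 defeats (n = 6) left of 4 defeats (n = 2), with the group median as a bar. D13 lies far above D14 for Marco, Serpina3n, C3, Cp and Fkbp5, while for Sparcl1 and Myh9 D13 and D14 are close and D4 and D5 are the highest of the 10-defeat libraries.

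Several genes of secreted plasma proteins were among the largest falls under the rule for named genes. Serpina3n, a protease inhibitor induced by glucocorticoids and cytokines, had 0.759 to 16.9 after 10 defeats (median 2.70), against 258 in D13 and 25.4 in D14. It had the largest fall under the rule for named genes, at -4.07 log2 units (SE 0.86, adjusted p = 0.0319, limma), and -2.42 against D14 alone. C3, the central complement component, had 14.4 to 96.8, against 385 and 111, and fell by 2.69. Cp, the copper-carrying ferroxidase ceruloplasmin, had 2.94 to 12.4, against 104 and 19.2, and fell by 2.66, with -1.47 against D14 alone and -2.02 for D4 and D5 only. Pltp, the phospholipid transfer protein, had 1.47 to 17.3, against 93.9 and 19.7, and its log2 fold change of -2.59 was -1.49 against D14 alone. Of 20 tested genes of the inflammation list 6 fell (30.0%, against 11.2% of all genes), 14 did not pass and none rose, with a median log2 fold change of -0.66. Socs3, a brake on cytokine signals, had 6.48 to 10.3, against 49.2 and 13.5, and fell by 1.597 log2 units, or by 0.70 against D14 alone and 2.49 against D13 alone. Nfkbiz, a nuclear partner of NF-kappa-B, had 1.65 to 2.91, against 7.13 and 4.48. Il1b, interleukin 1 beta, had 12.4 to 69.0, against 23.7 and 26.8, with a log2 fold change of 0.05. The list's median relative to all genes was -0.37, 0.15 against D14 alone, -1.04 against D13 alone and -0.19 without D4.

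Genes of the response to glucocorticoids, the steroids released under stress, passed in part. Of 20, which include the receptor gene Nr3c1, 5 fell (25.0%, against 11.2% of all genes) and none rose. The median log2 fold change was -0.65. Fkbp5, a chaperone of the glucocorticoid receptor, had 4.14 to 18.8 after 10 defeats, against 76.7 in D13 and 17.7 in D14, with D4 above D14, and fell by 2.03 log2 units (SE 0.63, adjusted p = 0.0456, limma), or by 1.00 against D14 alone and 3.05 against D13 alone. Pdk4, a switch from glucose to fat burning, and Klf9, a transcription factor, also passed (-1.78 and -1.03) and overlapped, and for Pdk4 the value was 13.2 in D13 and 1.57 in D14. Against D14 alone these were -0.55 for Pdk4 (-3.01 against D13 alone) and -0.57 for Klf9. Tsc22d3, Dusp1 and Per1 had log2 fold changes of -0.52, -0.31 and -1.03 and did not pass. Relative to all genes the median was -0.37, -0.10 against D14 alone and -0.90 against D13 alone. Of 22 immediate early genes, which respond within minutes to stimuli and to handling of tissue, 3 fell (13.6%, near the 11.2% of all genes) and none rose (median -0.72). Fosl2 had 0.633 to 1.34, against 6.61 and 2.11, with log2 fold changes of -1.34 and, against D14 alone, -0.69, while Fos (0.814 to 14.2, against 9.79 and 4.25) and Junb (17.2 to 55.5, against 61.0 and 38.3) did not pass.

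The study's title names lipid mediators, which are made from polyunsaturated fatty acids by lipoxygenases and cyclooxygenases and act through receptors on leukocytes. Among 14 genes of the lipoxygenase and leukotriene list, 2 were called higher (14.3%) and 1 lower (7.14%), with a median log2 fold change of -0.08. Over all genes 4.12% were called higher and 11.2% lower. The median relative to all genes was 0.21, 0.32 against D14 alone and 0.13 against D13 alone. The core of leukotriene synthesis did not pass the test. Alox5, the 5-lipoxygenase, had 1.49 to 4.03 after 10 defeats, against 3.91 and 1.84 after 4, and its helper Alox5ap had 58.0 to 177, against 137 and 78.3. Lta4h had 32.5 to 49.5, against 49.2 and 42.7, and Ltc4s had 3.11 to 9.40, against 2.95 and 5.38. The log2 fold changes of these 4 lay between -0.20 and 0.51. Mgst3, a microsomal glutathione transferase, had 52.4 to 536, against 19.6 and 34.9, and rose by 3.07 log2 units. Gpx4, a peroxidase that reduces lipid hydroperoxides, had 260 to 1960, against 156 and 220, and rose by 2.20. Ggt5, which trims leukotriene C4, had 2.14 to 5.73, against 8.93 and 6.67, and fell by 0.86.

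Prostanoid genes that passed the test were lower. Of 14, 3 fell (21.4%, against 11.2% of all genes) and none rose. The list's median was nonetheless 0.07, and relative to all genes 0.36, 0.18 against D13 alone and 0.21 without D10. Ptgs1, cyclooxygenase 1, had 9.55 to 15.6 after 10 defeats, against 50.9 in D13 and 15.95 in D14, and fell by 1.25 log2 units, but by 0.45 against D14 alone and by 2.06 against D13 alone. Hpgds, the haematopoietic prostaglandin D synthase, had 2.29 to 5.68, against 12.5 and 6.19, and fell by 1.02, or by 0.57 against D14 alone. Slco2a1, the prostaglandin transporter, had 0.662 to 6.82, against 17.7 and 7.95, and fell by 2.08. Ptgs2, cyclooxygenase 2, was below the filter on low values.

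Of 26 tested receptors of lipid mediators 4 fell (15.4%, near the 11.2% of all genes called lower) and none rose, with a median log2 fold change of -0.55. Ffar1, a receptor for long-chain fatty acids, had 0.128 to 2.10 after 10 defeats, against 2.74 and 4.11 after 4, and fell by 1.25 log2 units. Ptger4, a prostaglandin E2 receptor, had 2.16 to 6.80, against 9.10 and 7.96, and fell by 0.90. Ffar2 and Lpar1, for short-chain fatty acids and lysophosphatidic acid, passed (-0.79 and -1.08) with D4 inside the range of the 4-defeat libraries, and Lpar1 had -0.46 against D14 alone and -1.69 against D13 alone. S1pr1, with which lymphocytes follow sphingosine phosphate out of the organ, had 7.92 to 58.0, against 30.8 and 55.9, and did not pass.

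Among 28 genes that handle polyunsaturated fatty acids and phospholipids, 2 rose (7.14%) and 5 fell (17.9%), with a median of -0.66. Over all genes 4.12% rose and 11.2% fell. The median relative to all genes was -0.38, and -0.19 against D14 alone. Pla2g7, which inactivates platelet activating factor, had 14.3 to 31.2, against 160 and 39.9, and fell by 1.95, or by 0.97 against D14 alone and 2.94 against D13 alone. Lpcat2, which makes that factor, had 3.46 to 9.30, against 15.2 and 9.64, and fell by 0.88, or by 0.58 against D14 alone. Lpcat1 had 35.4 to 68.0, against 26.7 and 31.3, and rose by 0.83, a direction that turned to -0.17 when column totals were made equal. Acsl1, which activates long-chain fatty acids, had 13.5 to 30.0, against 9.70 and 12.02, and rose by 0.99.

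Transcript length moved with the comparison. The slope of expression on transcript length averaged -0.0739 ± 0.0795 after 10 defeats and 0.0562 ± 0.000972 after 4 (SD, n = 6 and 2), with all 6 libraries after 10 defeats below both after 4 (exact permutation test, two-sided p = 0.0357, the smallest this design allows, adjusted p = 0.125 over 7 library measures). In the longest of 5 bins of tested genes with equal numbers, 20.3% fell and 2.16% rose after 10 defeats. In the shortest bin, 7.04% fell and 4.02% rose. Median length was 1076.5 bases for genes that rose, 1875 for genes that fell and 1258 for all tested genes. After the length trend of each library was removed, 513 genes rose and 1209 fell, of which 1586 shared gene and direction with the calls as reported.

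Long cytoskeletal and chromatin genes fell. Of 22 such genes 13 fell (59.1%) and none rose (median log2 fold change -1.11), against 11.2% lower among all genes and 20.3% in the longest bin. Dst, a giant linker of cytoskeletal filaments, had 0.285 to 1.09 after 10 defeats, against 10.6 and 3.08 after 4, and fell by 2.06 log2 units, by 1.31 against D14 alone, and by 1.68 with the length trend removed. Macf1, of the same family, had 7.56 to 19.2, against 30.8 and 46.5, and fell by 1.42, but by 0.93 with the trend removed. Mycbp2, a ubiquitin ligase, had 2.80 to 9.82, against 17.1 and 19.2, and fell by 1.56. Myh9, the non-muscle myosin heavy chain, had 47.0 in D4 and 30.4 in D5 but 4.37 to 4.84 in the other 10-defeat libraries, against 80.1 and 53.6. It fell by 2.646 log2 units, and its log2 fold change was -0.78 with D4 and D5 only. Other large falls had that order too. Jak3, a kinase of cytokine receptors on lymphocytes, had 0.770 to 10.5, against 25.6 and 15.4, and Elmo1, a regulator of cell movement, had 0.777 to 11.3, against 22.1 and 14.4. Fscn1, the actin bundler of mature dendritic cells, had 0.636 to 16.3, against 29.2 and 21.7, and Plekhg2 had 0.337 to 8.58, against 13.8 and 14.8. For all 4, D4 was the highest 10-defeat library. Relative to all genes the median of the long genes was -0.79 against D14 alone and -0.56 with D4 and D5 only. The part of the length trend in these falls was not tested beyond its removal. The length used was the median over a gene's annotated transcripts, which can lie far below the longest of them. It was 4440.5 bases for Dst, and its median over the list was 2012. The removal therefore cannot decide what part full length has in these falls.

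**Figure D5:**
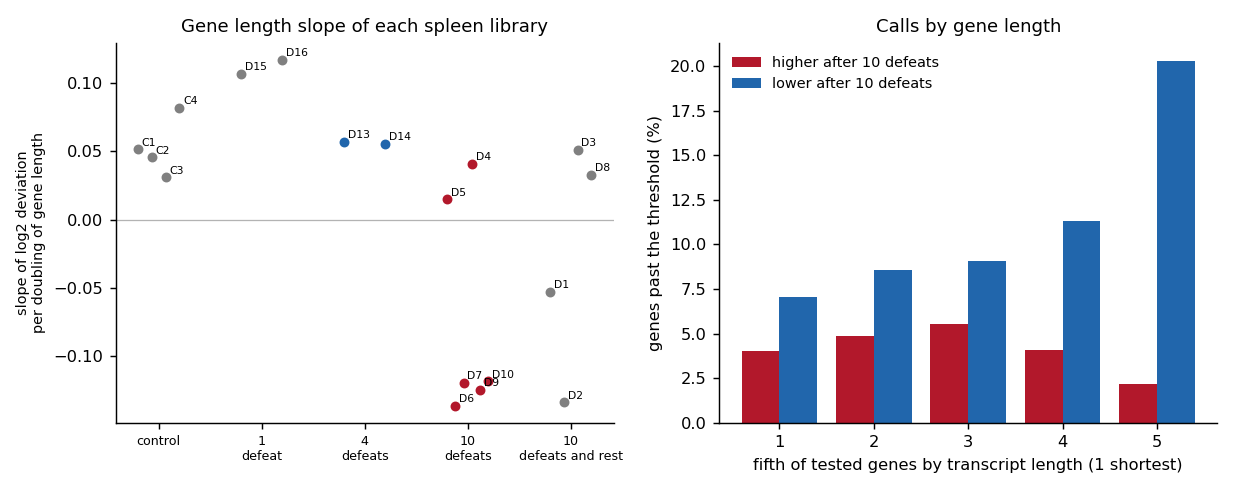
Left, slope of each library's deviation from the spleen mean (log2) per doubling of gene length, by group in order of defeats, each point a library. Right, percentage of genes called higher and lower after 10 defeats in 5 bins of transcript length with equal numbers of genes. D6, D7, D9 and D10 lie at -0.136 to -0.119, and the share of genes lower is 7.04% in the shortest bin and 20.3% in the longest.

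Short transcripts of housekeeping machinery had positive medians with few calls. Of 33 ribosomal protein genes 1 rose (3.03%) and none fell, with a median log2 fold change of 0.98. Of 26 nuclear genes of oxidative phosphorylation 1 rose (3.85%) and none fell, with a median of 1.12. Both shares were near the 4.12% of all genes. Rplp0, a ribosomal stalk protein, had 2671 to 7698 after 10 defeats, against 1771 and 1919 after 4, and rose by 1.28 log2 units. Ndufb9, of respiratory complex I, had 143 to 954, against 109 and 114, and rose by 1.90. The 13 protein genes of the mitochondrial genome had a median of -1.72, with a negative log2 fold change in 12 of them and none called by limma, although 10 of them had an unadjusted p under 0.05. Mitochondrial genes held 1.83% ± 1.596 of summed values after 10 defeats and 5.90% ± 1.10 after 4 (SD, n = 6 and 2; exact permutation test, two-sided p = 0.0357, the smallest this design allows, adjusted p = 0.125 over 7 library measures). All 6 libraries after 10 defeats were below both after 4. With D4 and D5 only, the medians relative to all genes were 0.39 for ribosomal, 0.37 for nuclear and -0.51 for mitochondrially encoded genes.

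Interferon-response genes moved singly. Of 25, 3 rose and 1 fell, with a median log2 fold change of 0.08. Isg15, a ubiquitin-like protein, had 56.7 in D4, 116 in D5 and 791 to 1151 in the others, against 20.1 and 56.8, and rose by 3.63 log2 units, with D4 and D14 almost equal. Usp18, which removes it, and Rsad2, an antiviral enzyme, rose by 1.32 and 2.02 with D4 below D14. Against D14 alone these were 0.84 and 0.81, and 3.23 for Rsad2 against D13 alone. Rigi, the RNA sensor, had 1.16 to 12.2, against 14.9 and 17.7, and fell by 1.96. A further 11 lists, covering cytotoxic, dendritic, MHC class II, megakaryocyte, progenitor, smooth muscle, clock, heat shock, integrated stress response, cholesterol and iron genes, held 9 rises and 12 falls among 169 tested members, with medians between -0.44 and 0.67 relative to all genes. Among all genes 4.12% rose and 11.2% fell.

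In the bone marrow of mice given the same treatments, few genes passed for 10 defeats against 4 in a fit shared with spleen. In the fit of all 37 libraries to 14513 genes, whose spread is estimated over spleen and marrow together, 1968 genes rose and 5033 fell in spleen and 12 rose and 2 fell in marrow. In that fit the difference between the spleen and marrow effects passed the threshold for 4209 genes (29%), with 1254 more positive and 2955 more negative in spleen. After quantile normalization the split was 1699 more positive and 1654 more negative. The pooled spread made the spleen results stronger, with a smallest adjusted p of 5.41e-07, against 0.0192 in the fit of spleen alone (limma). The same pooling can make marrow results weaker, and marrow was not fitted alone. The small marrow count therefore does not tell how far marrow changed. For Camp the SE of the difference, 1.353, was even below the 1.363 of its spleen change in the spleen fit. The adjusted p of the differences may therefore be too small and their count too high. Trim10 had a log2 fold change of -0.34 in marrow, and the difference of spleen minus marrow was 3.82 (SE 0.85, adjusted p = 0.00425, limma). Elane averaged 890 after 10 defeats and 957 after 4 in marrow, far above its spleen values, and the difference was 3.48 (SE 0.72, adjusted p = 0.00293, limma). For Serpina3n, low in marrow at averages of 0.552 and 0.979, the difference was -3.78, and for Myh9, with 208 and 195 in marrow, it was -2.77. These genes were named for their large changes in spleen, which are part of each difference, so that passing this test is no separate evidence. The marrow comparison has its own 8 libraries, so the libraries D6, D7, D9, D10 and D13 of the spleen bear on the spleen side of each difference.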

How the data were processed

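Spleens of 5 treatments gave 18 polyA libraries, of which 8 are compared here. The submitters' processing notes list kallisto 0.46.1, sleuth and build GRCm38, without their roles. In the deposited table each gene has 1 signal value per library. The authors' values are not counts, and no source used here states how they were scaled. The number of reads per library was worked out from the spacing of low values of 9751 single-transcript genes, with an assumed fragment of 200 bases. Between 61.9% and 77.7% of low values lay within 0.1 of a whole read, too few to recover counts, so read counts were not tested and the log scale was used.

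Genes that reached 1 in 2 or more spleen libraries were tested on log2(value + 1), which understates the change of low genes, with limma 3.58.1 in R 4.3.3, as group means of the 5 spleen groups with a trended and robust variance prior. The adjustment was that of Benjamini and Hochberg at 0.05. The difference between tissues used all 37 libraries and 10 group means, without a term for animals. The p-values of limma set a group difference against the spread between libraries within groups, estimated over all groups of the fit and drawn toward the prior. Symbols and lengths, the median over a gene's transcripts, are those of GENCODE M21, in which 99.3% of identifiers were found. Tested on simulated data for the spleen comparison with 13945 genes, the fit recovered 72 of 100 genes changed by 2 log2 units and 29 of 100 changed by 1, with 5 false calls. Only genes with a mean above 2 on the log2 scale were changed. The simulated noise was drawn separately for each gene and library. It thus lacked the shared shifts that set D4 and D5 apart from the other 10-defeat libraries, and D13 from D14. The false calls therefore do not give the error rate in the real data. The rule for named genes took up to 15 largest rises and 15 largest falls past the threshold that did not overlap and whose higher group averaged 2 or more, without predicted models, pseudogenes and receptor segments, then up to 4 members per list by p, and a fixed set, of which a few genes are not reported here. A few genes, among them Epor, Alas2, Csf1r, Klf1, Sptb, Ctsg, Cebpe, Ccr2, Mcm4, Mcm6 and Plk1, were named after their values were seen. The comparison, members and lists were chosen with earlier results of these data known. Promoters matched by symbol.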

Additional observations from a re-analysis of the deposited data

Results flagged for a closer look

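Among the genes named here, 11 had 1 library of the 10-defeat group farther from the other 5 than Dixon's 95% criterion allows. Chance alone gives such a distance in about 1 of 20 groups. At most 162 genes were checked, so some of the 11 can come from chance alone. The check used values that were not on the log scale. D4 was the high library for Cxcl12 (221), Cxcl13 (143), Ffar2 (13.4) and Lpar1 (5.39) and the low one for Epor (30.7). D6 was high for S100a8 (32417) and Stfa2 (8.60) and low for Alox15 (0.137). D5 was high for Mki67 (45.4) and Sptb (33.8), and D9 was low for Lrg1 (7.83).

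The test of the difference between spleen and marrow by limma passed for the 28 genes reported here among those with the largest rises and falls in spleen. They were chosen by their change in spleen, which is part of that difference, so the count is given as a description and says nothing of a tissue-specific effect. As spleen minus marrow on the log2 scale, the values for genes that rose in spleen were 4.31 for Rec114, 4.27 for Hbq1b, 4.18 for Fn3k, 3.98 for Camp, 3.93 for Pdzk1ip1, 3.84 for Slc25a38, 3.82 for Trim10, 3.70 for Uros, 3.54 for Mgst3, 3.48 for Elane, 3.46 for Prtn3, 3.20 for Acmsd, 3.15 for Fcnb and 2.98 for Nacad. Those for genes that fell in spleen were -3.78 for Serpina3n, -3.63 for Marco, -2.92 for C3, -2.85 for Pltp, -2.77 for Myh9, -2.58 for Elmo1, -2.56 for Cp, -2.56 for Sparcl1, -2.51 for Fscn1, -2.42 for Col4a1, -2.36 for Plekhg2, -2.34 for Mmp14, -2.29 for Col4a2 and -2.26 for Jak3.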

How the results depend on the processing

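The number of calls (2140, 574 higher and 1566 lower) moved widely with the processing. It was 1305 after quantile normalization (569 lower), 1176 with median-ratio size factors (462 lower), 5046 with equal totals (193 higher, 4853 lower), 665 with equal totals outside haemoglobin, a setting chosen after seeing the data (195 higher, 470 lower), 7001 with the spread estimated over all 37 libraries, also chosen later (1968 higher, 5033 lower), and 12 without a filter on low values (0 higher, 12 lower). It was 1409 with a pseudocount of 0.1 (962 lower), 1011 without the group defeated once (299 higher, 712 lower), 7706 with library weights (2288 higher, 5418 lower), 3 with the compared groups alone (0 higher, 3 lower), 1 without D6, D7, D9 and D10 (0 higher, 1 lower) and 0 against a fold threshold of 0.5 (1898 genes at an unadjusted p under 0.05). Leaving out single libraries gave 0 to 6363 calls, 0 to 1732 higher and 0 to 4631 lower. Other settings gave counts within 1.5 times of these. The cause of each shift was not tested.

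Of the 136 named calls, 38 were lost after quantile normalization. Only Lpcat1 (-0.17) and Pmvk (-0.20) reversed, both with equal totals. List medians relative to all genes moved beyond the replicate spread as follows. Without D6, D7, D9 and D10 they were 1.41 for erythroid, 0.99 for early granule, 0.77 for replication histone, 0.11 for B cell, -0.0751 for T cell, -0.0522 for prostanoid, 0.39 for ribosomal protein and 0.37 for nuclear oxidative phosphorylation genes. After quantile normalization they were 0.42 for S phase, -0.60 for plasma cell, -0.55 for glucocorticoid, -0.0833 for prostanoid and 0.45 for ribosomal protein genes. Without a filter they were -0.64 for plasma cell, -0.62 for monocyte, -0.63 for glucocorticoid, 0.0925 for prostanoid, -0.53 for lipid receptor and 0.10 for interferon genes. A pseudocount of 0.1 gave 2.31 for eosinophil and 2.79 for histone genes, and one of 5 gave 0.91 for histone, 0.18 for prostanoid and 0.16 for interferon genes. Equal totals gave -0.55 for glucocorticoid, 0.12 for prostanoid and 0.61 for interferon genes, the length and GC correction 0.14 for prostanoid genes, and a minimum of 5 gave -0.61 for lipid receptors. Leaving out single libraries gave 1.07 to 1.85 for eosinophil, -0.90 to -0.10 for glucocorticoid, -1.04 to 0.15 for inflammation, -0.98 to 0.0434 for plasma cell, 0.18 to 0.44 for prostanoid and -1.22 to -0.16 for splenic macrophage genes.

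No paired analysis was possible because the 10-defeat and 4-defeat spleens share no replicate number. The 4-defeat group holds 2 libraries, and without either of them the lone library is assumed to vary like the other groups. Depth limits genes near a value of 1, where a library can hold few reads.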
